A study of Homo sapiens with 16 samples.

Results

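The results below concern one contrast in P493-6 cells: the difference between the response to an N-myristoyltransferase (NMT) inhibitor at high MYC and the response to it at medium MYC. P493-6 are human B cells immortalised with Epstein-Barr virus; doxycycline shuts down their MYC transgene, and the viral factor EBNA2 works only when oestrogen is present. The high MYC groups were grown in DMEM with serum and no additive, and the medium MYC groups had 0.1 µg/mL doxycycline and 1 µM β-estradiol from 24 h before treatment. Each MYC level had 4 libraries from cells given 100 nM IMP1088, the inhibitor, for 24 h and 4 libraries from cells given DMSO, so all 16 libraries of the series enter the contrast. MYC level, doxycycline and estradiol cannot be told apart in this design, and "medium MYC" stands for the whole condition. The labels do not say whether the libraries of a group came from separate cultures, so each p-value measures only the spread between these libraries.

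NMT enzymes add myristate, a saturated fatty acid, to proteins that start with glycine, such as Src-family kinases and ARF GTPases, and the lipid helps to anchor them in membranes. MYC drives growth, and with it amino acid uptake, protein synthesis and the load on the endoplasmic reticulum (ER). Unfolded protein in the ER is sensed by IRE1, ATF6 and PERK, which raise chaperones and degradation factors through XBP1 and ATF6. PERK and its sister kinases phosphorylate eIF2alpha and so raise ATF4, the factor that switches on amino acid synthesis and transport genes, in what is called the integrated stress response (ISR).

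A response is the log2 difference of the deposited normalized count plus 1 between inhibitor and control libraries at one MYC level. The difference in response is the response at high MYC minus that at medium MYC, so a negative value means a response that was lower at high MYC. A gene was tested where its mean over the 16 libraries was at least 10, which held for 13765 of 58051 genes, and it was called where limma's adjusted p was under 0.05. Responses and differences are followed by their standard error, and means of normalized counts by their SD over 4 libraries. Depth lay between 8755296 and 13858534 reads per library. All 9 B cell markers looked up had a mean of at least 10, although CR2 had no read in any high MYC library, and their summed level was 25112 to 25365 in high MYC controls, 20056 to 21085 with inhibitor, 44173 to 45487 in medium MYC controls and 39065 to 40068 with inhibitor. The highest sum for another cell type was 291, for myeloid markers in a medium MYC control. Among markers of other types NCAM1, HBB, PPBP, PF4, DCN and KRT18 had no read in any library, and CD3D had at most 3 reads. Others were present: group means were 7.09 to 206 for COL1A1, 55.9 to 221 for ITGAM, 13.1 to 70.6 for EPCAM, 47.8 to 67.7 for LYZ, 32.3 to 59.6 for CD3E and 12.5 to 28.7 for CD3G, and their part in the results was not tested.

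The MYC transcript itself rose with the inhibitor at both levels. Its normalized counts were 34376, 32276, 30251 and 29693 in high MYC controls and 46843, 47645, 48049 and 47631 with inhibitor, against 959.6, 904, 1022 and 949 and 1400.4, 1444, 1328 and 1356 at medium MYC. The difference in response was 0.06 ± 0.06 (95% interval -0.06 to 0.18, limma adjusted p = 0.605). The transcript of the main target enzyme, NMT1, responded by -0.05 ± 0.03 at high and -0.06 ± 0.03 at medium MYC, and the difference was 0.01 ± 0.05 (limma adjusted p = 0.959). NMT2 was low, with group means between 2.33 and 21.7, and its difference of -0.75 ± 0.51 was not called (limma adjusted p = 0.431). An enzyme inhibitor need not change these transcripts, so they do not check the labels.

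The difference in response was called for 1188 of 13765 genes, or 8.63%. It was lower at high MYC for 733 (5.33%) and higher for 455 (3.31%). These shares are the background for the counts of each gene list below. The median size among called genes was 0.35 on the log2 scale with a median standard error of 0.07, and 82 genes differed by at least 1. Most of the contrast was a response found at one level. In 444 genes only the response at medium MYC was called, with 254 rises (1.85% of tested genes) and 190 falls (1.38%). In 377 only the response at high MYC was called, with 124 rises (0.901%) and 253 falls (1.84%). Both went the same way in 292, of which 133 responded more at high (0.966%) and 159 more at medium MYC (1.16%), and they went opposite ways in 63. The remaining 12 (0.0872%) had neither response called. For comparison, the response itself was called for 26.8% of genes at high and 26.3% at medium MYC. Called rises were 10.5% and 11.7% of tested genes at high and medium MYC, and called falls 16.3% and 14.6%. Missing a threshold at one level is weak evidence of no response there, so a stricter count was also made. The 95% interval of the other level's response lay within 0.25 of zero for 327 of the 444 and 254 of the 377 genes.

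**Figure D1:**
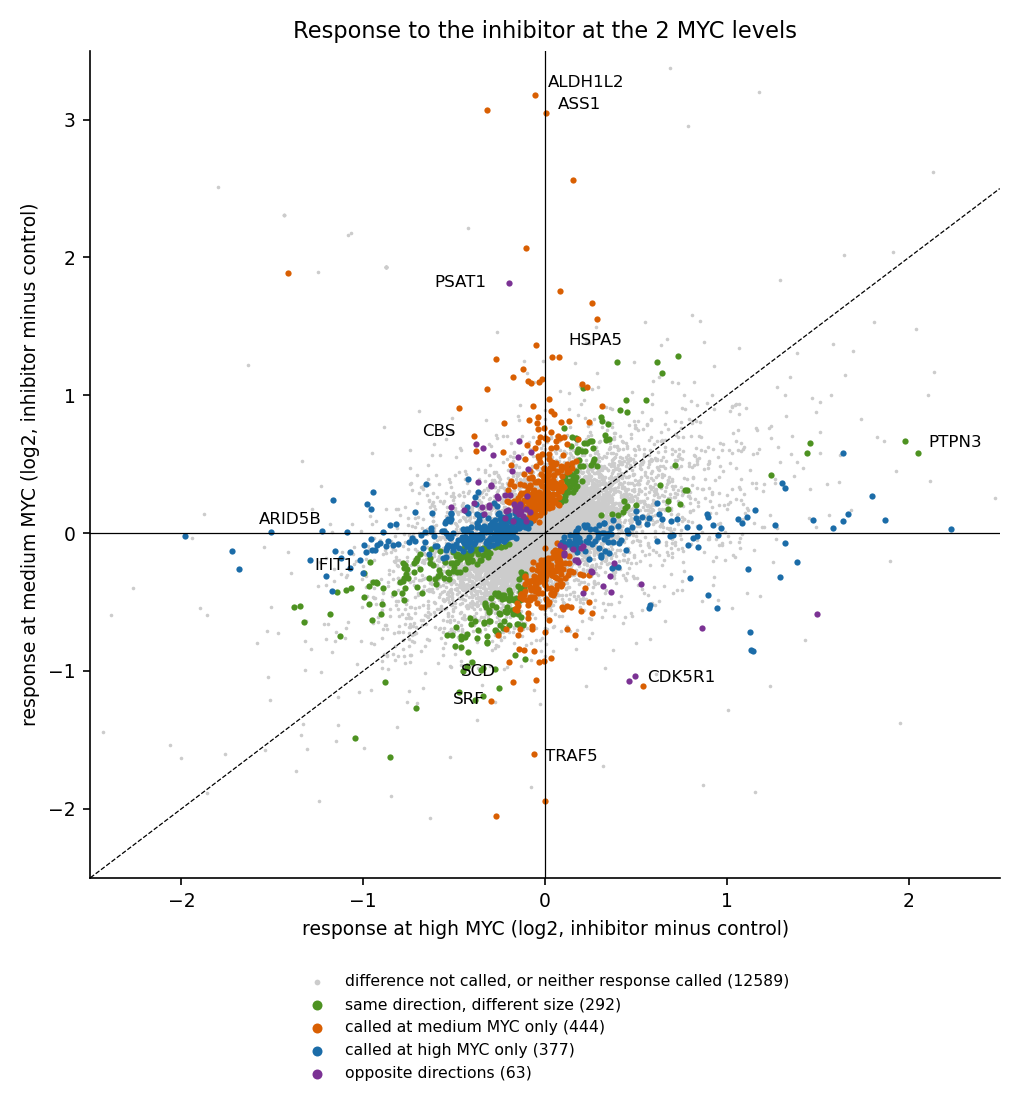
Each point is 1 of the tested genes, with its response at high MYC on the horizontal axis and at medium MYC on the vertical axis (log2, inhibitor minus control); the dashed line marks equal responses, and 14 genes lie outside the axes. Coloured genes have the difference called: the 444 called at medium MYC only hug the vertical axis, the 377 called at high MYC only hug the horizontal axis, and the 63 opposite genes lie in the upper left and lower right.

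Of the 41 genes that rose at medium and fell at high MYC, PSAT1, CBS, WWOX, PHGDH and PDIA4 had the largest differences. PSAT1 (ENSG00000135069, chr9:78297143-78330093), the aminotransferase of serine synthesis, had normalized counts of 563, 633, 674 and 616 in high MYC controls and 515, 537, 559 and 556 with inhibitor. At medium MYC it had 245, 256, 211 and 242 in controls and 843, 842, 853 and 819.8 with inhibitor. With inhibitor the medium MYC libraries thus ended above every high MYC library, although their controls lay below all of them. The PSAT1 response was -0.20 ± 0.06 at high and 1.82 ± 0.06 at medium MYC, a 3.52-fold rise, and the difference was -2.01 ± 0.08 (limma adjusted p = 8.1e-13). PHGDH (ENSG00000092621, chr1:119648411-119744226), which diverts a glycolytic intermediate into the same pathway, had 785, 804, 732 and 764 in high MYC controls and 593, 662, 648 and 626 with inhibitor. Its medium MYC values were 286, 288, 311 and 289 in controls and 451, 422, 417 and 448 with inhibitor, and no control library overlapped an inhibitor library at either level. PHGDH differed by -0.85 ± 0.07 (limma adjusted p = 2.61e-08). For CBS, which condenses serine and homocysteine on the route to cysteine, means fell from 223 ± 27.7 to 171 ± 10.4 at high MYC and rose from 49.8 ± 4.97 to 78.2 ± 4.17 at medium MYC. The CBS difference was -1.02 ± 0.14 (limma adjusted p = 4.61e-05).

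Both responses of 41 genes were called with a rise at medium and a fall at high MYC (0.298% of tested genes), and 22 had the converse (0.16%). In 46 of the 63 the control and inhibitor libraries were apart at both levels (13.1% of all tested genes), which describes the class and is no test, since both responses chose it. The class is sensitive to how the data are fitted: 20 genes stayed in it under each of 31 other fits, and 18 had both responses of at least 0.25. PHGDH and CBS were among the 20, and PSAT1 kept the class in 29 fits. Of the 5 genes with the largest difference and a rise at medium MYC, WWOX, an oxidoreductase, kept the class in only 7 fits, with a response of -0.34 ± 0.12 at high and 0.61 ± 0.12 at medium MYC. The fifth, PDIA4, a disulfide isomerase of the ER, went from 1568 ± 38.9 to 1418 ± 20.8 at high MYC and from 1097 ± 59.4 to 1742 ± 53.8 at medium MYC.

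Other members of the opposite class included tRNA synthetases and proteins of the ER. WARS1, the tryptophanyl-tRNA synthetase, fell from 1228 ± 22.5 to 1021 ± 23.7 at high MYC and rose from 2181 ± 27.0 to 2634 ± 134 at medium MYC, with a difference of -0.54 ± 0.05 (limma adjusted p = 1.14e-07). SYVN1, the ubiquitin ligase at the centre of ER-associated degradation, responded by -0.31 ± 0.05 and 0.20 ± 0.05. Both genes kept the class in all 31 fits. Calreticulin (CALR), a lectin chaperone of the ER, and GARS1, the glycyl-tRNA synthetase, showed mainly a rise at medium MYC (0.59 and 0.47), and their falls at high MYC (-0.08 and -0.09) were called in 18 and 13 fits. SLC3A2, the chain shared by the CD98 amino acid transporters, responded by -0.15 ± 0.04 at high and 0.55 ± 0.04 at medium MYC.

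A few other genes of the opposite class are given one by one. CFLAR, the inhibitor of caspase-8 activation, had 308, 296, 289 and 321 in high MYC controls and 281, 255, 274 and 261 with inhibitor, against 2387, 2388, 2391 and 2402 and 3229.5, 3378, 3228 and 3271 at medium MYC. It was thus several times higher at medium MYC before treatment and rose further, whereas the lower level at high MYC fell; the difference was -0.63 ± 0.06 (limma adjusted p = 8.05e-08). MEF2B, a transcription factor of germinal centre B cells, responded by -0.37 ± 0.09 at high and 0.37 ± 0.09 at medium MYC. ITPKB, the kinase that converts inositol trisphosphate, responded by -0.44 ± 0.05 and 0.17 ± 0.05, and CPEB4, a regulator of mRNA polyadenylation, by -0.39 ± 0.05 and 0.22 ± 0.05. MEF2B, ITPKB and CPEB4 were picked from the 20 stable genes after their values were seen.

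In the other direction, with a rise at high and a fall at medium MYC, the 5 genes with the largest differences at a mean of at least 50 were F2RL3, CDK5R1, RXRA, KANK2 and KLHL21. MBNL1-AS1 (2.08) and AKAP5 (1.56) differed more, at lower means; MBNL1-AS1 is an antisense RNA, whose reads cannot be told apart from those of the opposite strand where strand is not used. KANK2 (ENSG00000197256, chr19:11164267-11197791), a scaffold protein of cell adhesions, had 502, 491, 498 and 494 in high MYC controls and 613, 677, 642 and 626 with inhibitor. It had 447, 493, 498 and 437 in medium MYC controls and 365, 342, 348 and 339.8 with inhibitor, so the groups were apart at both levels from similar starting values. Its difference was 0.79 ± 0.07 (limma adjusted p = 1.06e-07). CDK5R1 (ENSG00000176749, chr17:32486619-32491256), the p35 activator of the kinase CDK5, started from very different levels: 15.8, 18.0, 12.1 and 15.6 in high MYC controls and 561, 608, 527 and 589 in medium MYC controls. With inhibitor it had 25.8, 15.5, 26.2 and 21.8 and 267, 294, 272 and 281. The medium MYC fall of -1.03 ± 0.14 was clear in every library, while at high MYC one inhibitor library lay among the controls and the response was 0.49 ± 0.14.

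F2RL3, the thrombin receptor PAR4, fell from 78.8 ± 7.37 to 37.0 ± 3.59 at medium MYC and rose from 37.7 ± 5.28 to 51.9 ± 2.02 at high MYC. The related receptor F2R (PAR1) shared the fall at medium MYC (-0.94 ± 0.09) and was at -0.03 ± 0.09 at high MYC. RXRA, the retinoid X receptor, responded by 0.53 ± 0.12 and -0.37 ± 0.12, and KLHL21, a substrate adaptor of a cullin ubiquitin ligase, by 0.32 ± 0.06 and -0.38 ± 0.06. KLHL21 and KANK2 kept the class in all 31 fits, as did KLF6, PURB, RLF and SYNE3.

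**Figure D2:**
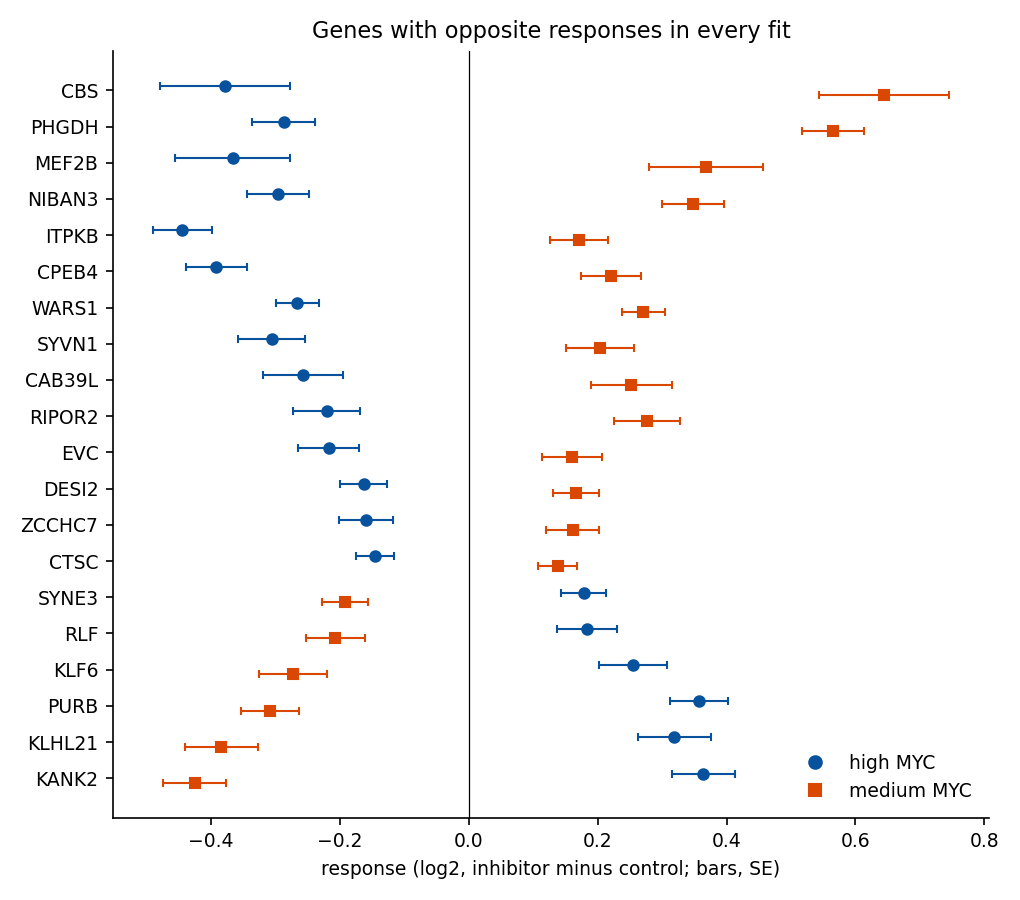
Responses at high MYC (circles) and medium MYC (squares) are shown with their standard errors (log2, inhibitor minus control) for the 20 genes whose responses were called in opposite directions under every fit. The 14 genes in the upper rows, CBS to CTSC, rose at medium MYC and fell at high MYC, and the 6 in the lower rows, SYNE3 to KANK2, did the converse.

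ER chaperones were the gene list with the largest share of called members. Of 29 tested, 22 had the difference called, each lower at high MYC, against the 5.33% of all genes called in that direction. At medium MYC 23 rose and 2 fell, and at high MYC 5 rose and 4 fell, with median responses of 0.51 and -0.01. HSPA5 (ENSG00000044574, chr9:125234853-125241330), the ER HSP70 known as BiP, had 4831, 5066, 5183 and 4998 in high MYC controls and 5142, 5163, 5203 and 5101 with inhibitor. In medium MYC controls it had 2891, 3058, 2922 and 3081, and with inhibitor 7245, 7231, 7386 and 7115. The medium MYC libraries thus went from the lowest of the 4 groups to the highest, a 2.42-fold rise, while the response at high MYC was 0.04 ± 0.03 (95% interval -0.02 to 0.10). The difference was -1.24 ± 0.04 (limma adjusted p = 7.02e-15).

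MANF, a secreted ER-resident survival factor, followed the same course, with means of 388 ± 21.9 and 379 ± 5.53 at high MYC and 206 ± 18.2 and 441 ± 8.29 at medium MYC. Other members with large differences were the co-chaperone DNAJB9 (-1.27 ± 0.22), SDF2L1 (-1.37 ± 0.20) and CRELD2 (-1.19 ± 0.19). HERPUD1, a membrane component of ER-associated degradation, rose 2.43-fold at medium MYC and responded by 0.07 ± 0.05 at high MYC. In its list 9 of 25 members were called, each lower at high MYC. In the list of ER stress sensors and their factors 6 of 13 were called in that direction. TMED2, a cargo receptor and not a sensor, is among these 6 and is also counted with the vesicle coats below. XBP1 (ENSG00000100219, chr22:28794555-28800597) rose at both levels, from 1370.0, 1384, 1363 and 1414 to 1603, 1626, 1619 and 1546 at high MYC and from 387, 409, 423 and 400.5 to 811, 889, 857 and 815 at medium MYC. The rise was larger at medium MYC, with 1.06 against 0.21 on the log2 scale (limma adjusted p of the difference = 7.85e-10). EIF2AK3, the gene of PERK, responded by 0.26 ± 0.04 and 0.62 ± 0.04.

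The promoters of these genes can be read beside their values. The ER stress response element (ERSE) is bound by NF-Y with ATF6 or XBP1, and was searched as CCAAT, any 9 bases and then CCACG. Both strands were searched, in the 250 bases before each start in the RefSeq GRCh38.p14 table. It was found at 0.074% of 35116 starts and in 16 of the 9886 tested genes with a promoter in the table. Among these 16 genes 12 had the difference called, each lower at high MYC, against 9.5% called of the 9886, and 10 of the 12 rose at medium MYC. Of 28 ER chaperones with a promoter, 7 held it. The stretches are printed 5′ to 3′ on the strand of the gene, with the match to either strand of the element in capitals and 25 bases of flank on each side, for 5 genes of the lists above that held a match. They lie at chr9:125241366-125241434, minus strand for HSPA5, chr22:49918529-49918597, plus strand for CRELD2, chr19:12938359-12938427, plus strand for CALR, chr12:103930191-103930364, plus strand for HSP90B1 and chr22:28800578-28800646, minus strand for XBP1.
HSPA5: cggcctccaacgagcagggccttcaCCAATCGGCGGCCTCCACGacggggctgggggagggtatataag
CRELD2: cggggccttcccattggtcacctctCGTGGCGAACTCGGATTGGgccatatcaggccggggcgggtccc
CALR: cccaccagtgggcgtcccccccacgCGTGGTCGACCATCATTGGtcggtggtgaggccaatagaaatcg
HSP90B1: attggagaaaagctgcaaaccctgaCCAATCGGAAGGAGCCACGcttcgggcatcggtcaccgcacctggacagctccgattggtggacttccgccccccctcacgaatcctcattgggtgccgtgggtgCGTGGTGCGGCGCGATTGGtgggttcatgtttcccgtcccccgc
XBP1: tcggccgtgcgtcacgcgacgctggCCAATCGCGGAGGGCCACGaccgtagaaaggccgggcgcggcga
HSP90B1, the ER HSP90, holds 2 matches and rose by 0.51 at medium MYC against 0.03 at high MYC. A match says only that these letters are present, and binding was not measured.

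The protein entry and export machinery showed the same sign of difference, with rises at high MYC as well. Of 32 translocon and signal recognition genes 13 were called, each lower at high MYC, and of 31 vesicle coat genes 18 were, against 5.33% of all genes. In the first list 27 translocon genes rose at medium MYC and 9 at high MYC, and in the second 24 rose at medium and 14 at high MYC, where 11.7% and 10.5% of all tested genes rose. SEC24D (ENSG00000150961, chr4:118722823-118838683), a cargo adaptor of COPII vesicles, had 276, 275, 272 and 292 and 499, 465, 459 and 433 at high MYC, control and inhibitor, and 453, 429, 463 and 432 and 1069.5, 1088, 1073 and 1115 at medium MYC. Its rise was 1.66-fold at high and 2.44-fold at medium MYC, with a difference of -0.56 ± 0.07 (limma adjusted p = 6.46e-06). SEC61A1, the channel of the translocon, responded by 0.15 ± 0.03 and 0.70 ± 0.03, its partner SSR3 by 0.25 ± 0.04 and 0.67 ± 0.04, and TMED2, a cargo receptor, by 0.14 ± 0.04 and 0.63 ± 0.04.

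Regulators of the integrated stress response rose mainly at medium MYC. Of 19 tested 11 rose and 3 fell at medium MYC, 3 rose and 4 fell at high MYC, and 10 had the difference called, each lower at high MYC, with median responses of -0.09 at high and 0.38 at medium MYC. ATF4 (ENSG00000128272, chr22:39519695-39522685), whose protein is controlled mainly by translation, had 2479, 2499.9, 2356 and 2476 in high MYC controls and 2439, 2299, 2273 and 2270.2 with inhibitor, against 1522, 1514, 1623 and 1521 and 1956, 1915, 2029 and 1940.0 at medium MYC. The transcript rose at medium MYC without reaching its level at high MYC, and the difference was -0.42 ± 0.05 (limma adjusted p = 2.47e-06). DDIT3, the stress factor CHOP, rose 3.18-fold at medium MYC, from 48.1 ± 8.46 to 154 ± 9.81, and went from 35.5 ± 13.8 to 41.1 ± 6.45 at high MYC, which was not called. SESN2, an amino acid sensor upstream of mTORC1, responded by 0.06 ± 0.07 and 0.67 ± 0.07. ATF5 was the exception in direction, falling at both levels (-0.28 and -0.10), so its call does not belong to a rise at medium MYC.

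The 3 most negative differences among list members were those of SLC6A9 (-3.39), ALDH1L2 and ASS1, from the amino acid transporter, one-carbon and amino acid synthesis lists. ASS1 (ENSG00000130707, chr9:130444929-130501274), which makes argininosuccinate for arginine synthesis, had 254, 262, 239 and 234 in high MYC controls and 251, 241, 258 and 241 with inhibitor. At medium MYC it had 13.6, 15.4, 19.3 and 14.8 in controls and 139, 128, 152 and 127 with inhibitor. The 8.26-fold rise took the transcript part of the way to its level at high MYC, where the response was 0.00 ± 0.10; the difference was -3.04 ± 0.14 (limma adjusted p = 7.1e-12). ALDH1L2 (ENSG00000136010, chr12:105019784-105084577), a folate enzyme of mitochondria, had 104, 99.95, 105 and 98.4 and 96.8, 113, 82.9 and 101 at high MYC, and 21.9, 26.5, 35.0 and 22.2 and 224, 260.3, 255 and 235 at medium MYC. Its 9.06-fold rise at medium MYC ended above the high MYC libraries, and the difference was -3.24 ± 0.18 (limma adjusted p = 1.04e-10). ASNS (ENSG00000070669, chr7:97852118-97872542), asparagine synthetase, had 302, 305, 296 and 301 and 299, 273, 278 and 294 at high MYC, and 262, 262, 265 and 281 and 583, 605, 558 and 536 at medium MYC. From nearly equal control levels it rose 2.13-fold at medium MYC alone, with a difference of -1.16 ± 0.07 (limma adjusted p = 7.85e-10).

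As lists, 8 of 20 serine, glycine and folate enzymes, 7 of 17 amino acid synthesis enzymes and 9 of 16 amino acid transporters were called lower at high MYC, and 1 transporter, SLC43A2, was called higher. In the serine, glycine and folate list 6 rose and 7 fell at medium MYC, with a median response of 0.01, and 9 of the 20 differences were above 0. Among the called folate genes TYMS, thymidylate synthase, responded by -0.10 at high and 0.03 at medium MYC. The glycine transporter SLC6A9 rose 8.42-fold at medium MYC, from 10.3 ± 4.15 to 88.4 ± 10.5, and had means of 47.7 ± 13.9 and 37.0 ± 5.45 at high MYC. CTH, the enzyme after CBS on the way to cysteine, rose from 10.6 ± 2.29 to 67.4 ± 11.4 at medium MYC, with means of 4.65 ± 1.21 and 5.41 ± 2.11 at high MYC. SLC7A5, the light chain paired with SLC3A2, rose from 502 ± 39.6 to 901 ± 53.8 at medium MYC, far below its 4341 ± 171 in high MYC controls.

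Cytosolic and mitochondrial tRNA synthetases were counted apart. Of 20 cytosolic synthetases 9 were called, each lower at high MYC, against 5.33% of all tested genes. In this list 11 rose at medium MYC and 4 fell at high MYC, against 11.7% and 16.3% of all tested genes. Of 17 mitochondrial synthetases limma called 0, against 8.63% of all tested genes, and in so short a list 0 is near that share. An unadjusted p under 0.05 was found for 2 of the 17, against 2924 of all 13765. Neither edgeR nor DESeq2 called any, and the fit that called most called 1. The median responses of the mitochondrial synthetases were -0.05 at high and -0.04 at medium MYC. AARS1, the alanyl-tRNA synthetase, was called for a fall at high MYC (-0.35 ± 0.03) and was at 0.04 ± 0.03 at medium MYC.

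The element that ATF4 and its partners bind, called CARE or the amino acid response element, was searched as TGATGNAA on both strands of the same windows. It was present in 2.27% of tested genes with a promoter and in 12 of 195 (6.15%) of those called for a rise at medium MYC only, and in 7 of 105 (6.67%) with a larger response at high MYC in the same direction. In the ISR list 4 of 19 genes with a promoter held a match, and 3 of 16 cytosolic tRNA synthetases did. Genes with a fall at high MYC only held it in 8 of 197 (4.06%). Of 224 tested genes with a match 33 had the difference called (14.7%), against 9.5% of all tested genes with a promoter. The difference was lower at high MYC for 28. Among these, 15 rose at medium MYC and 15 fell at high MYC, with some in both counts. The 4 stretches shown were picked among genes described here that held a match, and do not stand for the full set. The match is in capitals. They lie at chr7:97872444-97872501, minus strand for ASNS, chr16:56931941-56931998, plus strand for HERPUD1, chr7:30594820-30594877, plus strand for GARS1 and chr16:70289661-70289718, minus strand for AARS1.
ASNS: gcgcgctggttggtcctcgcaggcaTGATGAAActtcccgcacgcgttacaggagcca
HERPUD1: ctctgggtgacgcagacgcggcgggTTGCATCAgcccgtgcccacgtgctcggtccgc
GARS1: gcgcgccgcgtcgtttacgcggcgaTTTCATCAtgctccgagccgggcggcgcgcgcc
AARS1: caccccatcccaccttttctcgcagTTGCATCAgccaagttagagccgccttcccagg
ASNS, HERPUD1 and GARS1 rose at medium MYC. The rise of AARS1 at medium MYC was not called.

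**Figure D3:**
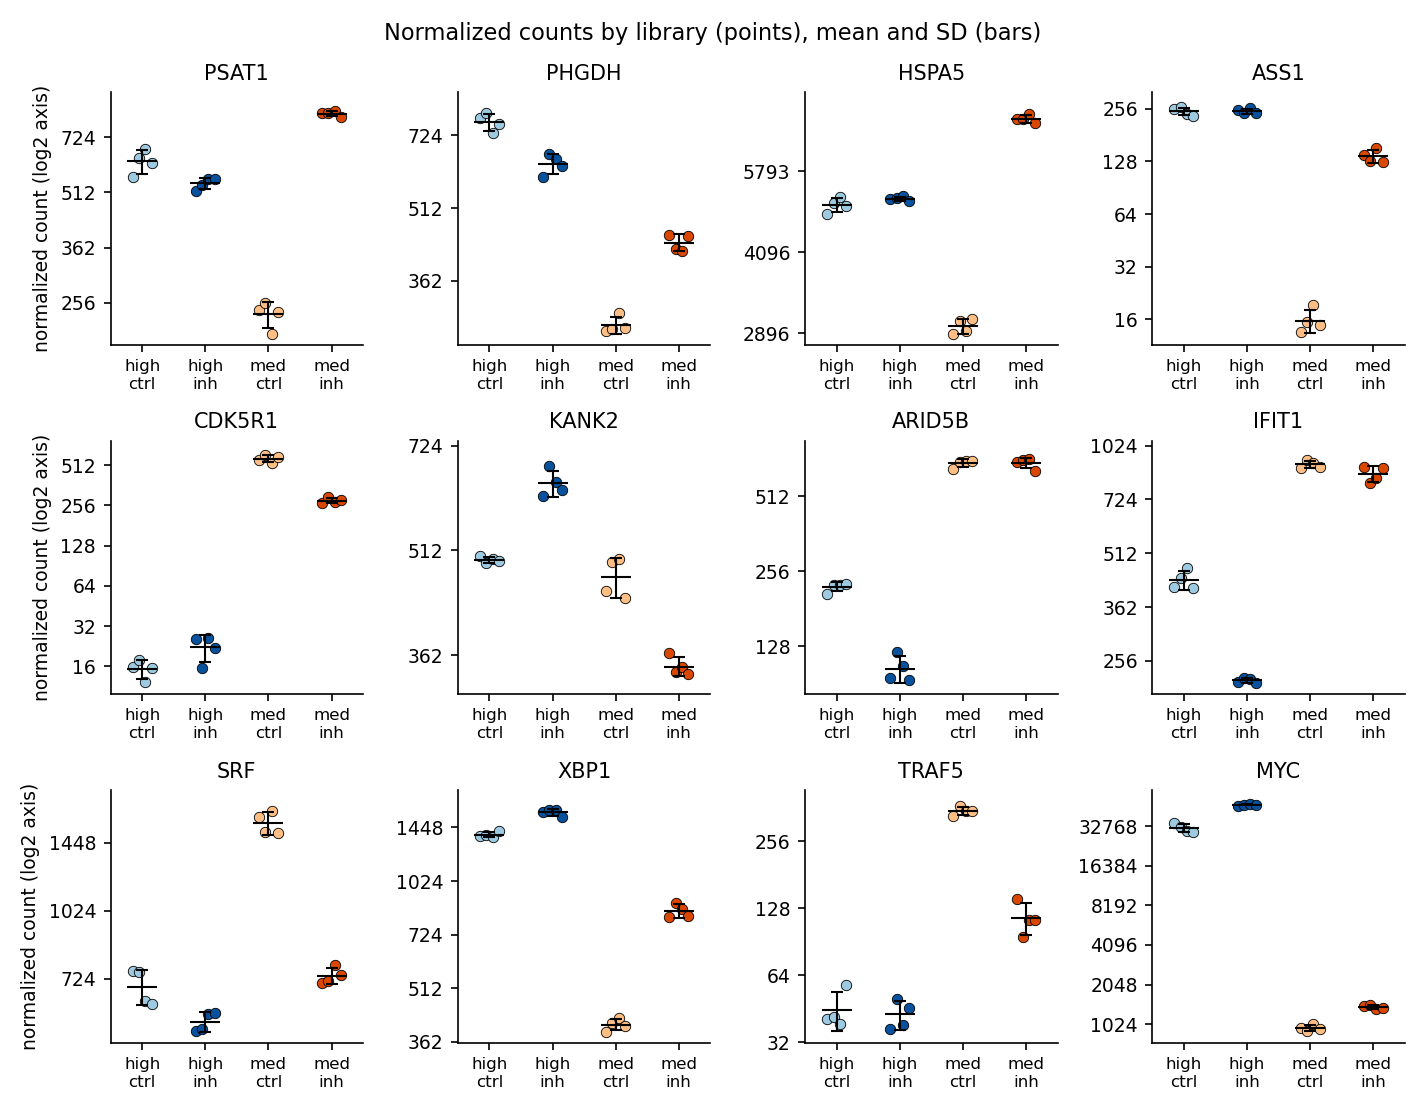
Each point is 1 library's normalized count on a log2 axis for 12 genes, with the group mean and SD as bars; groups are high MYC control and inhibitor, then medium MYC control and inhibitor. PSAT1 and PHGDH moved in opposite directions, HSPA5 and ASS1 rose at medium MYC only, ARID5B and IFIT1 fell at high MYC only, and MYC rose alike at both levels.

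In the sterol, fatty acid and glycolysis lists the called differences, with 1 exception, were higher at high MYC. Of 27 cholesterol synthesis and uptake genes 13 had the difference called, each higher at high MYC (3.31% of all genes), and 18 fell at high MYC and 23 at medium MYC. MSMO1, a sterol-processing enzyme of the pathway, responded by -0.12 ± 0.04 and -0.66 ± 0.04. SCD, the desaturase of stearoyl-CoA, fell from 18132 ± 418 to 16181 ± 318 at high MYC and from 7756 ± 191 to 4191 ± 36.3 at medium MYC. ACACA, which makes malonyl-CoA for fatty acid synthesis, was at 0.01 ± 0.03 at high MYC and fell by 0.40 on the log2 scale at medium MYC. In the fatty acid list 6 of 21 were called, each higher at high MYC.

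In the glycolysis list 13 of 27 were called higher at high MYC and 1 lower. PGK1, phosphoglycerate kinase, responded by -0.17 ± 0.03 and -0.55 ± 0.03, LDHA, lactate dehydrogenase, by -0.25 ± 0.03 and -0.67 ± 0.03, and the lactate exporter SLC16A3 by -0.12 ± 0.05 and -0.85 ± 0.05. The exception was the glucose transporter SLC2A3, which fell more at high MYC (-0.97 ± 0.07 against -0.51 ± 0.07).

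Other genes that fell at medium MYC only numbered 190 in all (1.38% of tested genes). Among those with a mean of at least 50 and a 95% interval of the high MYC response within 0.25 of zero, the 5 with the largest differences were ARHGEF17, HIC1, F2R, MCAM and SLC16A3. ARHGEF17, a guanine nucleotide exchange factor, went from 619 ± 74.2 to 293 ± 11.1 at medium MYC and from 180.1 ± 14.1 to 174 ± 18.8 at high MYC. HIC1, a transcriptional repressor, responded by 0.03 ± 0.08 and -0.90 ± 0.08, and MCAM, the adhesion molecule CD146, by -0.06 ± 0.09 and -0.86 ± 0.09. TRAF5 (ENSG00000082512, chr1:211326615-211374946), an adaptor of TNF receptors outside that limit, had 40.7, 41.6, 38.6 and 58.1 and 36.6, 49.9, 38.4 and 45.7 at high MYC, and 334, 369.8, 353 and 352 and 141, 95.4, 114 and 114 at medium MYC. The fall at medium MYC was 3.04-fold and no library of its groups overlapped, while at high MYC the groups were mixed; the difference was 1.55 ± 0.19 (limma adjusted p = 1.13e-05). SRF (ENSG00000112658, chr6:43171299-43181507), a regulator of actin genes, fell at both levels, from 752, 748, 646 and 636 to 554, 559, 606 and 607 at high MYC and from 1651, 1527, 1707 and 1519 to 709.5, 717, 778 and 736 at medium MYC. The 2.17-fold fall at medium MYC brought it to near the high MYC control level, and the difference was 0.87 ± 0.08 (limma adjusted p = 2.29e-07). Others with the same direction and a larger response at medium MYC were PIM2, a survival kinase that rose (0.40 and 1.24), SPON2, a matrix protein that fell (-0.34 and -1.18), and GLIPR1 (-0.39 and -1.21).

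Interferon-stimulated genes were the main list with falls larger at high MYC. Of 37 tested 22 were called, each lower at high MYC, and 30 fell at high MYC against 14 at medium MYC, with median responses of -0.47 and -0.13. IFIT1 (ENSG00000185745, chr10:89392546-89406486), which binds viral RNA, had 412, 436, 465 and 410.2 in high MYC controls and 224, 229.6, 228 and 222 with inhibitor. At medium MYC it had 889, 935, 915 and 889.6 in controls and 892, 805, 829 and 887 with inhibitor, with overlapping groups. The difference was -0.84 ± 0.07 (limma adjusted p = 2.61e-08). MX1, an antiviral GTPase, fell at both levels (-0.63 ± 0.03 and -0.21 ± 0.03), and IRF7, the factor that amplifies interferon production, responded by -0.61 ± 0.08 and -0.09 ± 0.08. In this list the count depended on the scale: on square roots, which weigh genes by absolute change, 13 of 37 were called. Guanylate-binding and interferon gamma genes had 2 of 16 called (12.5%, against 8.63% of all tested genes), with opposite signs.

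The interferon-stimulated response element (ISRE), bound by complexes of STAT and IRF proteins, was searched as GAAA, any 2 bases and then GAAA, on both strands. It was present in 3.56% of tested genes with a promoter and in 18 of 29 interferon-stimulated genes. Among guanylate-binding and interferon gamma genes 8 of 15 held it, although only 2 of the 16 tested were called. It was in 16 of 105 (15.2%) genes with a larger response at high MYC in the same direction. That class holds 11 genes of the interferon-stimulated list. Of 352 tested genes with a match 54 had the difference called (15.3%), against 9.5% of all tested genes with a promoter. The difference was lower at high MYC for 41 of them and higher for 13. The 3 stretches shown come from called list members, IFI6 (chr1:27672251-27672373, minus strand), RSAD2 (chr2:6877607-6877666, plus strand) and IFI44L (chr1:78620259-78620409, plus strand), with matches in capitals.
IFI6: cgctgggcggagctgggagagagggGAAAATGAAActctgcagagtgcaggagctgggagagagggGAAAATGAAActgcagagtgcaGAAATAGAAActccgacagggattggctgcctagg
RSAD2: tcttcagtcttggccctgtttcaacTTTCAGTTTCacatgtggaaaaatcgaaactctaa
IFI44L: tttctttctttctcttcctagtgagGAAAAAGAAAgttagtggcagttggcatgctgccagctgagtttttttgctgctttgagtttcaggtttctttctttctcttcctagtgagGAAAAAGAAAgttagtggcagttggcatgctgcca
IFI6 holds 3 matches and responded by -0.81 ± 0.07 at high and -0.08 ± 0.07 at medium MYC, RSAD2 by -1.02 ± 0.16 and -0.20 ± 0.16, and IFI44L, with 2 matches, by -0.39 ± 0.05 and -0.07 ± 0.05.

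**Figure D4:**
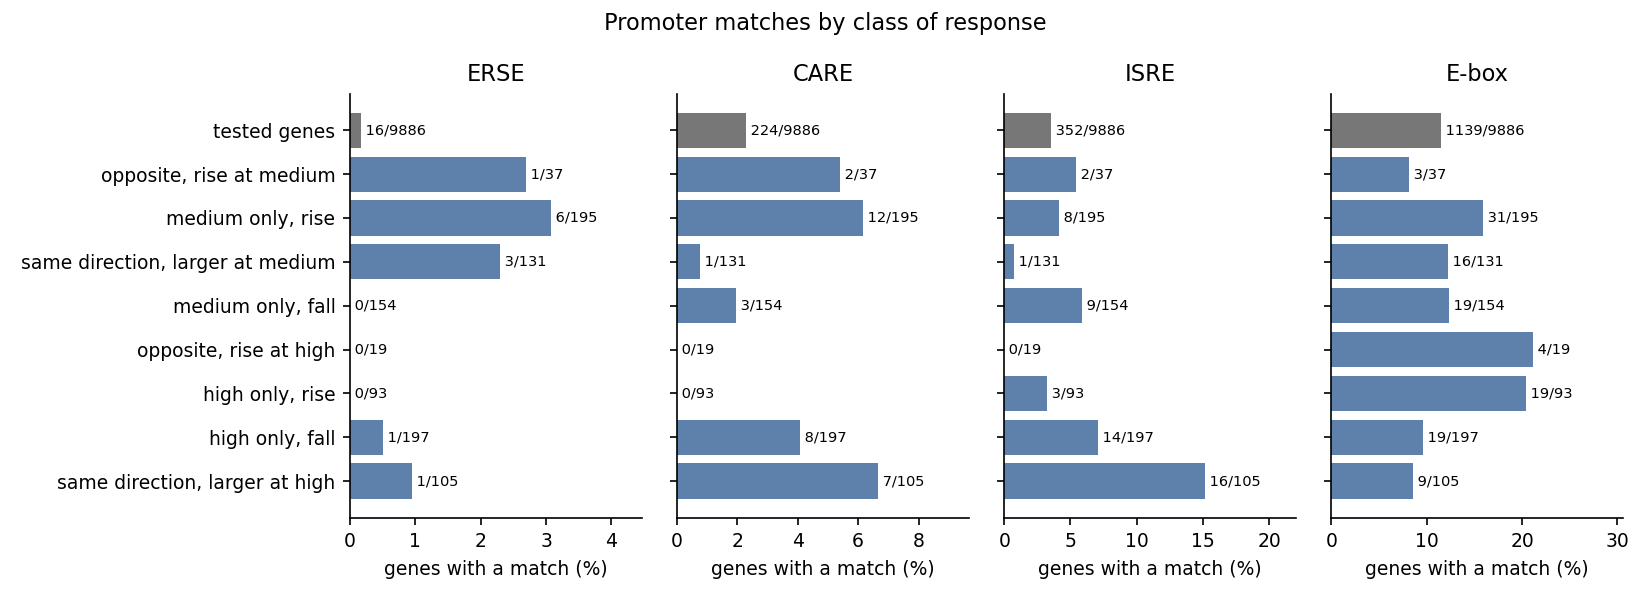
Bars give the percentage of genes with a match to each element (ERSE, CARE, ISRE and E-box) in the 250 bases before a start. They are given for all 9886 tested genes with a promoter (grey) and for each class of response. The numbers beside the bars are genes with a match over genes in the class. Of the 16 genes with an ERSE match 10 had the difference called and rose at medium MYC. ISRE reaches 15.2% where the response was larger at high MYC. The E-box is found in 20.4% of genes that rose at high MYC only and 15.9% of those that rose at medium MYC only, against 11.5% of tested genes.

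In B cell receptor signalling 11 of 28 were called lower and 1, SYK, higher at high MYC, against 5.33% and 3.31% of all tested genes. In this list 23 fell at high and 19 at medium MYC, where 16.3% and 14.6% of all tested genes fell. LYN, a myristoylated Src-family kinase, fell from 1907 ± 62.6 to 1399 ± 20.9 at high MYC and from 4016 ± 116 to 3725 ± 24.6 at medium MYC, with a difference of -0.34 ± 0.04 (limma adjusted p = 8.16e-06). BLNK, the adaptor downstream of SYK, fell at high MYC only (-0.24 ± 0.03 against 0.08 ± 0.03). PTPN6, the phosphatase SHP-1, fell most of the 28 at both levels (-1.13 and -0.75). The summed B cell markers fell in the same libraries, as given above, but not every marker did. At medium MYC the mean of BLK went from 573 to 603 and that of CR2 from 83.2 to 99.8, while the others fell. All libraries are of the same B cell line, and whether the falls are particular to receptor signalling genes was not tested.

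In the list of Fc receptor-like genes and lectins 5 of 9 were called, each lower at high MYC: FCRL2, FCRL4, FCRL5, FCRLA and the lectin CLEC17A (-1.59 ± 0.23). FCRL5 (ENSG00000143297, chr1:157513377-157552520) had 3132, 3123, 3260.3 and 3231 and 1708, 1652, 1682 and 1655 at high MYC, and 5584, 5771, 5366 and 5492 and 4492, 4286, 4171 and 4462 at medium MYC. It fell in every inhibitor library at both levels, more so at high MYC, with a difference of -0.58 ± 0.04 (limma adjusted p = 7.67e-09). FCRL2 fell at high MYC only (-0.72 ± 0.07 against 0.15 ± 0.07), and FCRL4 fell 3.21-fold there, from 77.5 ± 3.16 to 24.0 ± 6.31. All 13 MHC class II genes had a difference below 0 and 5 were called; HLA-DRA responded by -0.26 ± 0.03 and -0.07 ± 0.03, and the family's sequence similarity makes counts of single members uncertain. Among chemokine receptors CCR2 fell more (-1.38 and -0.53) and CXCR4 rose more (0.74 and 0.21) at high MYC. P2RY8, which confines B cells to germinal centres, was kept in the same list but is not a chemokine receptor. It fell at high MYC only (-0.44 and -0.02). In that list 3 of 14 were called (21.4%, against 8.63% of all tested genes).

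Falls at high MYC only were called in 253 genes (1.84% of tested genes). Among those with a mean of at least 50 and a 95% interval of the medium MYC response within 0.25 of zero, ARID5B, BASP1, MPEG1, IFIT1 and FMN1 had the largest differences. ARID5B (ENSG00000150347, chr10:61901300-62096944), a chromatin-binding protein, had 208, 226, 226 and 228 in high MYC controls and 95.7, 121, 106 and 93.6 with inhibitor, and 655, 702, 707 and 708 and 701, 717, 721 and 647 at medium MYC. The fall at high MYC was 2.13-fold with groups apart, the medium MYC groups overlapped, and the difference was -1.10 ± 0.10 (limma adjusted p = 1.14e-07). MPEG1, the pore-forming protein perforin-2, had 1158, 1144, 1115 and 1124 and 674, 614, 655 and 627 at high MYC, and 2310.4, 2258, 2326 and 2217 and 2415, 2329, 2415 and 2365 at medium MYC. BASP1, itself a myristoylated protein, went from 47.3 ± 5.62 to 25.3 ± 4.92 at high MYC and from 609 ± 41.8 to 613 ± 21.0 at medium MYC. FMN1, a formin that builds actin filaments, responded by -0.91 ± 0.08 and -0.07 ± 0.08.

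Of 35 mitosis genes tested 15 were called, each lower at high MYC; 27 fell at high MYC (16.3% of all tested genes) against 5 at medium MYC (14.6%), and the median responses were -0.20 and 0.00. CCNB1, the mitotic cyclin B1, had 1375, 1378, 1435 and 1399 and 1130.2, 1208, 1187 and 1160.1 at high MYC, and 1874, 1907, 1839 and 1818 and 2024, 1823, 1997 and 1802 at medium MYC. It fell by 0.25 on the log2 scale at high MYC in libraries that did not overlap, and was mixed at medium MYC; the difference was -0.29 ± 0.05 (limma adjusted p = 0.000924). NUSAP1, a spindle protein, responded by -0.24 ± 0.03 and 0.05 ± 0.03. DNA replication genes were closer to the background, with 5 of 43 called (11.6%, against 8.63% of all tested genes), each lower at high MYC, and with RRM2, a subunit of ribonucleotide reductase, at -0.42 ± 0.03 and -0.04 ± 0.03.

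Rises at high MYC only were called in 124 genes (0.901% of tested genes), and the stricter count kept 64. Of these 64, the 5 with the largest differences at a mean of at least 50 were AMZ1, ZNF26, TNFRSF10D, ZNF845 and GNB4. Without the interval limit 23 of the 124 differed by at least 1. AMZ1, a metallopeptidase, had 57.2, 66.3, 48.6 and 55.9 in high MYC controls and 91.4, 91.0, 85.5 and 104 with inhibitor, and 156, 142, 161 and 144 and 156, 151, 131 and 161 at medium MYC. High MYC inhibitor libraries were all above their controls, and the medium MYC groups overlapped; the difference was 0.71 ± 0.15 (limma adjusted p = 0.003). ZNF26, a zinc finger protein, responded by 0.56 ± 0.07 and 0.06 ± 0.07, and TNFRSF10D, a decoy receptor for TRAIL, by 0.41 ± 0.07 and -0.07 ± 0.07. GNB4, a G protein beta subunit, went from 1582 ± 103 to 1986 ± 84.5 at high MYC and from 506 ± 38.5 to 462 ± 28.2 at medium MYC. ZNF845 (0.46 ± 0.13) was the least secure of the 5, with a limma adjusted p of 0.0304 that was above 0.05 in 6 of the 16 fits without 1 library.

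The E-box CACGTG is a palindrome bound by MYC and related factors. Of the genes with a rise at high MYC only that had a promoter, 19 of 93 (20.4%) held it, against 11.5% of tested genes. It was also in 31 of 195 (15.9%) genes with a rise at medium MYC only. Of 1139 tested genes with an E-box 120 had the difference called, or 10.5%, against 9.5% of all tested genes with a promoter. The difference was lower at high MYC for 64 of them and higher for 56.

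EBNA2-responsive B cell genes moved in both directions, with 8 of 34 called lower and 4 higher at high MYC. The higher ones were CDK5R1 and 3 genes of the NF-kappaB pathway: BIRC3 (0.69 ± 0.08 and 0.09 ± 0.08), RELB (0.35 and 0.00) and NFKB2 (0.32 and 0.07). Among the lower ones were SLAMF1 (-0.54 and 0.09), CD86 (-0.52 and -0.03) and TRAF1 (-0.58 ± 0.04 and -0.13 ± 0.04). TRAF1 was far higher in medium MYC controls, with 7326, 7658, 7881 and 7611 against 407, 375, 366 and 417 in high MYC controls, and on a square root scale its difference changed sign (0.19). The medium MYC groups had estradiol, which EBNA2 needs, together with doxycycline. EBNA2 activity was not measured, and what sets the starting levels of this list was not tested. In the TNF receptor and TRAF list 3 of 25 were called in each direction (24% in all, against 8.63% of all tested genes).

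Where both levels responded alike in direction and more at high MYC, 111 of 133 genes fell and 22 rose. PTPN3, a tyrosine phosphatase, rose from 19.5 ± 3.16 to 84.8 ± 19.2 at high MYC, 4.14-fold, and from 61.4 ± 2.73 to 92.4 ± 6.39 at medium MYC, with a difference of 1.47 ± 0.22 (limma adjusted p = 8.69e-05). The unnamed gene ENSG00000241666 rose by 1.44 ± 0.08 and 0.58 ± 0.08, and its exons overlap RCSD1 on the other strand. SPRED2, an inhibitor of Ras signalling, fell by 1.35 on the log2 scale at high and by 0.53 at medium MYC. IRF2-DT, a noncoding RNA, had a difference of 0.80 ± 0.23 (limma adjusted p = 0.0335), and its call was lost in 10 of the 16 fits without 1 library.

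Among 49 genes for N-myristoylated proteins, the substrates of the inhibitor's target, 5 were called lower and 3 higher at high MYC. That is 16.3% of the list, against 8.63% of all tested genes, and the median responses were -0.12 at high and -0.13 at medium MYC. The lower ones were LYN, BASP1 and the vesicle GTPases ARF1, ARL1 and ARF4 (0.22 and 0.59), and the higher ones LCK, DEGS1 and PRKAB2. LCK, a Src-family kinase, fell at medium MYC only (-0.20 ± 0.12 against -0.93 ± 0.12), and DEGS1, a desaturase of ceramide synthesis, likewise (0.01 ± 0.04 against -0.51 ± 0.04). In the myristoylation machinery 1 of 13 was called (7.69%, near the 8.63% of all tested genes), ZER1 (-0.24 and 0.11).

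Of 37 nuclear complex I genes and 13 mitochondrially encoded genes limma called 0, against 8.63% of all tested genes. For a list of 13 genes, 0 is near that share. In each list 2 had an unadjusted p under 0.05, against 2924 of all 13765 genes. Neither edgeR nor DESeq2 called any. The fit that called most called 2 mitochondrially encoded genes, and no fit called a nuclear complex I gene. Ribosome biogenesis genes under MYC had 5 of 30 called (16.7%, against 8.63% of all tested genes). Of these, 3 had a difference below 0 and 2 above it, and the median responses of the list were both 0.09. Heat shock chaperones of the cytosol, in contrast to those of the ER, had 3 of 22 called, each higher at high MYC. That is 13.6% of the list, against 3.31% of all genes called in that direction, with median responses of 0.03 and -0.10. Of 27 p53 targets 5 were called (18.5%), each lower at high MYC, against 5.33% of all genes called in that direction. In this list 14 rose at high and 20 at medium MYC, where 10.5% and 11.7% of all tested genes rose.

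**Figure D5:**
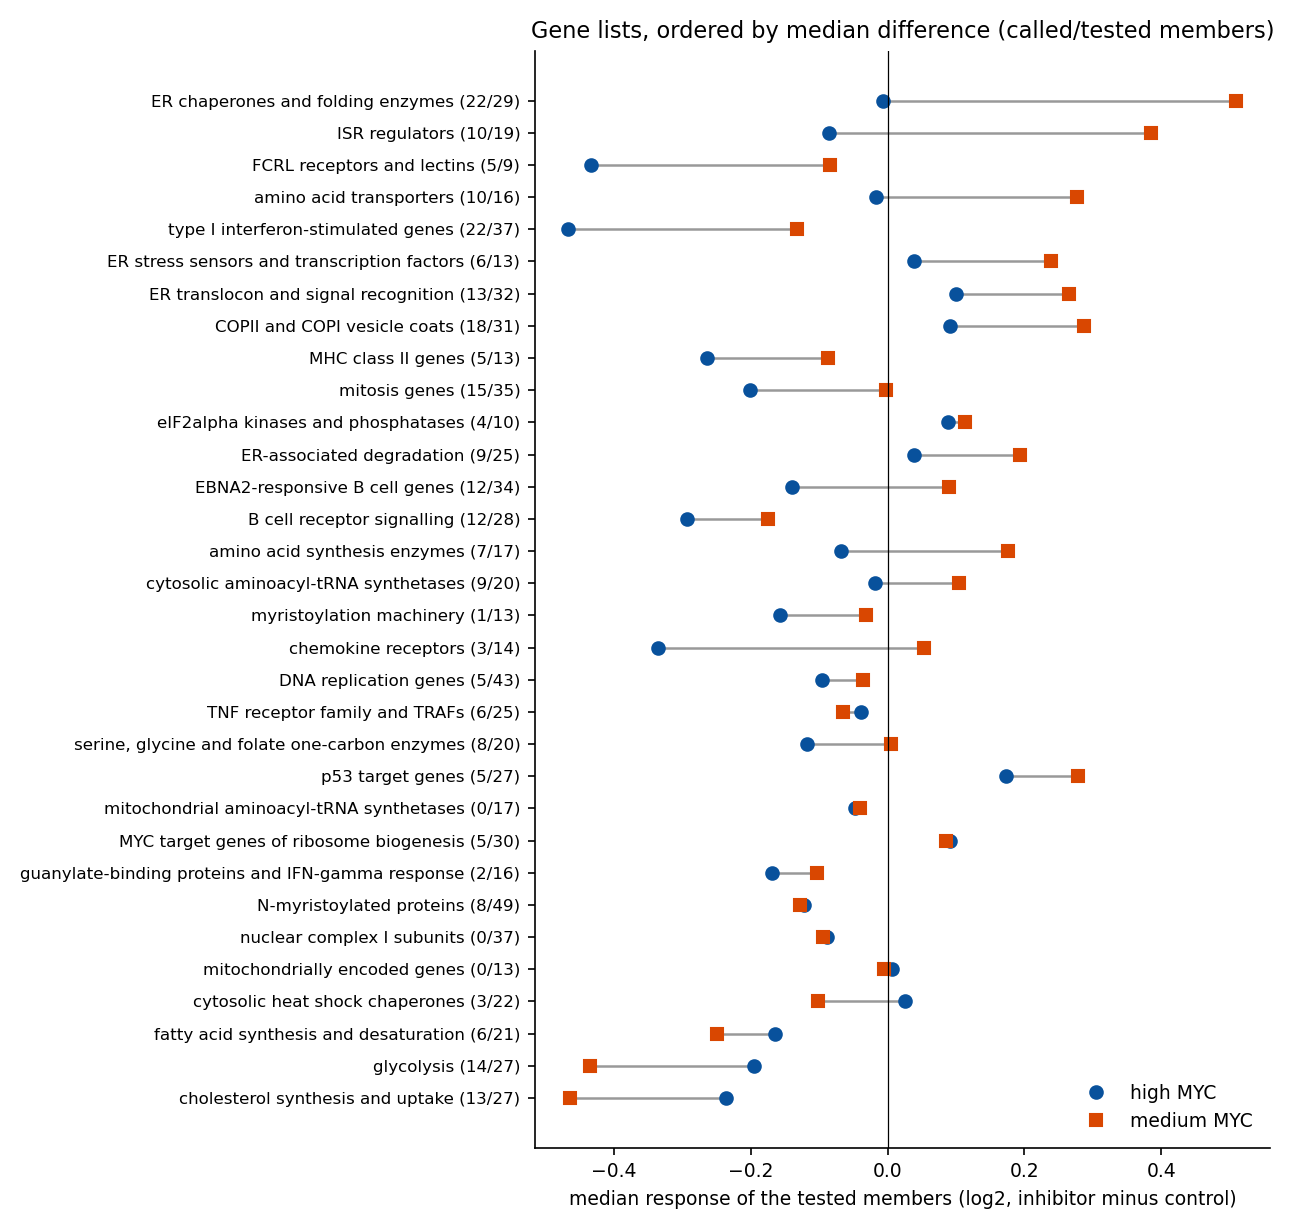
For each gene list the circle is the median response of its tested members at high MYC and the square that at medium MYC (log2, inhibitor minus control), in order of the median difference; called and tested members are given beside each name. ER chaperones at the top have medians of -0.01 and 0.51, interferon-stimulated genes -0.47 and -0.13, and cholesterol genes at the bottom -0.24 and -0.46.

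Exons of 567 of the 1188 called genes, and of 6895 of the 13765 tested, overlap an exon of another gene, and whether counting used strand is not given in the sources used here. Of the 76 genes chosen by the naming rule this applies to 28, which are ENSG00000241666, ASNS, ALDH1L2, SLC7A5, GARS1, WARS1, CALR, SYVN1, EIF2AK3, TMED2, SEC61A1, PGK1, ARHGEF17, HIC1, F2R, MCAM, SLC16A3, CFLAR, BLNK, MX1, BASP1, MPEG1, NUSAP1, ZNF26, GNB4, GLIPR1, NMT1 and NMT2. Their counts may include reads of the neighbour. Overlap is given for these 76 genes only.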

How the data were processed

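RNA of 16 P493-6 libraries (4 groups of 4) was sequenced; groups and replicate numbers come from the titles. The authors deposited 1 table of 58051 Ensembl genes, a non-negative signal they name normalized counts. The submitters' processing notes list STAR 2.5.2a, RSEM 1.2.31, DESeq2 1.16.1 and GRCh38 without roles; annotation and strand use are not given in the sources used here. In each library the values were whole multiples of a single step, whose reciprocal equalled that library's median-of-ratios factor. Whole reads were thus recovered (100% of values, within 0.0001). In 2 libraries, medium MYC inhibitor replicates 2 and 4, that step is close to 1, so the step alone cannot show the recovery there; the count tests (edgeR 4.0.16, DESeq2 1.42.0; alternatives only) use the reads of all 16.

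The main test was limma 3.58.1 (R 4.3.3) on the logarithm (log2) of deposited value + 1, with a mean trend, all 16 libraries in 4 group means, two-sided, Benjamini-Hochberg over 13765 genes with mean of at least 10. A class needed the difference and the named responses called. The scripts were tested on simulated data. Symbols matched 56948 identifiers, and positions are those of GENCODE 29 on GRCh38, matched by identifier. Promoters from RefSeq matched 9886 tested genes.

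Genes named by rule were, per class, the 5 largest differences with mean of at least 50 (in the one-level classes, only genes whose other response had a 95% interval within 0.25 of zero), up to 2 per list with over 20% of its members called, and MYC, NMT1 and NMT2 (1 list gene that the rule names is not reported here and was not replaced); other genes of the lists and of the opposite class were named after their values were seen. Members and lists were chosen with earlier results of these data known. Same-numbered libraries did not deviate together (mean r of -0.07 at high and -0.02 at medium MYC), so no pairing was used. Alternatives were other scalings, pseudocounts, filters, scales, tools, a GC correction, replicate blocks and each library left out. The reads carry no molecular identifiers, so read depth bounds counting error only.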

Additional observations from a re-analysis of the deposited data

Results flagged for a closer look

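The difference in response was the measurement of the report, so each named gene with a called difference is listed here because its responses at the 2 MYC levels differed by limma's test of the difference itself (adjusted p under 0.05), as did 1188 genes in all. Among genes with opposite responses and a rise at medium MYC these differences (log2, response at high minus medium MYC) were -2.01 for PSAT1, -1.02 for CBS, -0.95 for WWOX, -0.85 for PHGDH, -0.81 for PDIA4, -0.70 for SLC3A2, -0.56 for GARS1, -0.54 for WARS1, -0.67 for CALR, -0.51 for SYVN1 and -0.63 for CFLAR. Among those with a rise at high and a fall at medium MYC they were 1.53 for F2RL3, 1.53 for CDK5R1, 0.90 for RXRA, 0.79 for KANK2 and 0.70 for KLHL21. For rises called at medium MYC only the values were -3.04 for ASS1, -1.24 for HSPA5, -1.21 for HERPUD1, -1.16 for ASNS, -1.13 for MANF, -0.42 for ATF4, -0.61 for SESN2, -3.24 for ALDH1L2 and -0.88 for SLC7A5. Falls called at medium MYC only had differences of 1.02 for ARHGEF17, 0.93 for HIC1, 0.90 for F2R, 0.80 for MCAM, 0.73 for SLC16A3, 0.41 for ACACA and 1.55 for TRAF5. Rises called at high MYC only had 0.71 for AMZ1, 0.50 for ZNF26, 0.48 for TNFRSF10D, 0.46 for ZNF845 and 0.46 for GNB4. Falls called at high MYC only had -1.10 for ARID5B, -0.90 for BASP1, -0.88 for MPEG1, -0.84 for IFIT1, -0.83 for FMN1, -0.19 for HLA-DRA, -0.32 for BLNK, -0.87 for FCRL2, -0.42 for P2RY8, -0.29 for NUSAP1 and -0.29 for CCNB1. Genes with the same direction and a larger response at high MYC had 1.47 for PTPN3, 0.85 for ENSG00000241666, -0.85 for CCR2, -0.82 for SPRED2, 0.80 for IRF2-DT, -0.42 for MX1, -0.27 for HLA-DRB1, -0.58 for FCRL5, -0.34 for LYN, 0.53 for CXCR4 and -0.45 for TRAF1. Those with a larger response at medium MYC had 0.87 for SRF, -0.85 for PIM2, -0.85 for XBP1, 0.84 for SPON2, 0.83 for GLIPR1, -0.36 for EIF2AK3, -0.39 for DNAJC3, -0.49 for TMED2, -0.55 for SEC61A1, -0.42 for SSR3, -0.56 for SEC24D, 0.54 for MSMO1, 0.72 for SCD and 0.39 for PGK1.

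In 19 of 304 groups of 4 libraries of the named genes, 1 library stood apart from the other 3 by Dixon's ratio, and chance gives about 1 in 20 such groups. As normalized counts, replicate 1 of the high MYC control group had 208 for ARID5B. Replicate 3 of the high MYC control group had 411 for SPON2, 2356 for ATF4 and 2009.8 for SEC61A1. Replicate 4 of the high MYC control group had 114 for CCR2, 657 for EIF2AK3 and 58.1 for TRAF5. Replicate 3 of the high MYC inhibitor group had 4082 for HLA-DRA. Replicate 4 of the high MYC inhibitor group had 15709 for SCD. Replicate 1 of the medium MYC control group had 655 for ARID5B and 807 for BLNK. Replicate 3 of the medium MYC control group had 311 for PHGDH, 1623 for ATF4, 1137 for SYVN1 and 3844 for LYN. Replicate 4 of the medium MYC control group had 281 for ASNS, 8039.7 for SCD and 6639.7 for PGK1. Replicate 4 of the medium MYC inhibitor group had 504 for GNB4.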

How the results depend on the processing

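Under 31 other fits, the count of genes with the difference called ran from 1013 (no filter, 28714 genes tested) to 1643 (GC correction), against 1188, and 8 called genes changed sign, on the square root scale only. Leaving out 1 library gave 1020 to 1350 genes, with 3168 to 3934 responses called at high and 3202 to 3688 at medium MYC. It gave 47 to 79 opposite genes, 324 to 468 at high MYC only, 383 to 475 at medium MYC only and 232 to 304 in the same direction. The opposite count, 63, moved to 98 with the GC correction and to 39 with no filter; the cause was not tested. Of 73 named genes with a called difference, 68 kept direction and call in each fit. The exceptions were TRAF1, which changed sign on the square root scale (0.19), SPRED2 and HLA-DRB1, whose calls were lost on that scale, ZNF845 and IRF2-DT. ZNF845 lost its call in both replicate block fits and without replicate 2 of either group at high MYC, or control replicate 4 or inhibitor replicate 2, 3 or 4 at medium MYC (0.38 to 0.54 over the 16 fits without 1 library). IRF2-DT lost it with no filter, on square roots, and without control replicate 2 or 3 or inhibitor replicate 1, 2 or 4 at high MYC, or control replicate 1 or 2 or inhibitor replicate 1, 2 or 4 at medium MYC (0.62 to 0.92). NMT1, never called, was -0.0024 with equal library totals and between -0.014 and 0.036 without 1 library. MYC, not called on the log2 scale, was called on square roots, where differences follow absolute levels.

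The replicate numbers did not pair libraries. A replicate block nested in MYC level gave 1026 called genes and a block shared by both levels 1052, and 1482 with the GC correction added to the nested block. In list counts, the ISR regulators had 6 called at a mean of 100 or more, where fewer were tested, and the DNA replication genes 2 to 3 in several fits. The median standard error of the difference was 0.11 over all tested genes and 0.07 over called ones, but calling itself favours a small standard error. Small differences in genes that were not called may have been missed, and the part of depth in this was not tested.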

Other observations

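The 3 gene groups below were put together after values had been seen, so their counts describe these libraries and support nothing. Of 49 genes of the actin cytoskeleton tested, 35 fell at high MYC and 37 at medium MYC. The difference was called higher at high MYC for 19 and lower for 4, and 16 of the 23 belonged to the genes with the same direction and a larger response at medium MYC. FLNA, which crosslinks actin filaments, responded by -0.35 at high and -0.99 at medium MYC, and CORO1A, an actin regulator of leukocytes, by -0.43 and -0.97. LCP1, the leukocyte plastin, went the other way in size, with -0.78 at high and -0.33 at medium MYC. Cytoplasmic actin itself fell at both levels, ACTB by 0.87 at high and 0.70 at medium MYC on the log2 scale, and its difference was not called (limma adjusted p = 0.053).

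Of 11 immunoglobulin and antibody secretion genes 8 were called, each lower at high MYC, and 6 rose at medium MYC only. IGHM, the mu heavy chain, went from 24766 ± 1225 to 23512 ± 464 at high MYC and from 7626 ± 440 to 10128 ± 185 at medium MYC (SD, n = 4; limma adjusted p of the difference = 1.62e-06). MZB1, an ER chaperone of antibody-secreting cells, responded by -0.04 at high and 0.76 at medium MYC, and JCHAIN, the chain that joins antibody polymers, by 0.17 and 0.69. The near-identical light chain genes IGLC1, IGLC2 and IGLC3 share reads, so their separate values are uncertain.

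Of 451 genes with a ZNF symbol 27 were called higher and 5 lower at high MYC (7.10% in all, against 8.63% of all tested genes). They made up 19 of the 124 genes with a rise at high MYC only (15.3%), against 3.28% of tested genes. Their median GC content was 43.4%, against 48.1% over all tested genes, and with a GC correction 35 were called higher and 6 lower.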
